A study of Mus musculus with 8 samples.

Results

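The genes described here are 9 components of the Nodal and activin pathway, namely the ligand Nodal, its coreceptor Tdgf1 (also called Cripto), the antagonists Lefty1 and Lefty2, the receptors Acvr1b, Acvr2a and Acvr2b, and the signal transducers Smad2 and Smad3. They were chosen by name, and each was found once among the 24243 gene names of the female table and the 23906 of the male table. RNA-Seq had been carried out on E15.5 gonadal germ cells sorted by the Oct4-EGFP transgene, with 2 libraries each for control and Snf5 CKO germ cells of either sex. The Snf5 CKO embryos were Snf5fx/Δ with TNAP-Cre, and the controls were pooled from Snf5fx/+ and Snf5fx/Δ embryos together with Snf5fx/+ embryos that carried TNAP-Cre, so that some control cells also carried a Cre or a deleted allele. All groups carried Oct4-EGFP. The labels give C57BL/6 as the strain, whereas the study describes a mixed background. TNAP-Cre is a Cre inserted at the Alpl locus that is active in primordial germ cells, it removes exon 1 of Snf5, and some germ cells of Snf5 CKO embryos still held the SNF5 protein. Control samples and female Snf5 CKO samples were pools of embryos. Every RNA-Seq entry that the study lists for male Snf5 CKO germ cells came from an individual embryo, with more than 1 such entry under replicate 1.

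Nodal is a secreted protein of the TGF-β superfamily that binds a pair of type II receptors and a pair of type I receptors, and it needs an EGF-CFC coreceptor such as Cripto to do so. Activins use the same receptors without the coreceptor. The activated type I receptor phosphorylates SMAD2 and SMAD3, which enter the nucleus with SMAD4 and act with partners such as FOXH1. Lefty proteins bind Nodal and its coreceptor and block signalling, and Nodal, Lefty1 and Lefty2 are themselves well-known targets of the pathway, which gives it positive and negative feedback. In the fetal testis, Nodal and Cripto are known from male germ cells around the time of sex determination. The inhibin α and βB subunits are made largely by Sertoli cells.

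Nodal, Lefty1 and Lefty2 were called higher in Snf5 CKO than in control germ cells of both sexes and Tdgf1 in those of males, while no receptor or SMAD gene among the 9 passed the threshold in either sex. In male Snf5 CKO germ cells, mean levels of Nodal, Tdgf1, Lefty1 and Lefty2 were 7.86, 15.6, 22.3 and 7.53 times those of controls. In females the same 4 genes were listed at 0 or below 0.1 FPKM in every control library and lay between 1.20 and 14.9 FPKM in the Snf5 CKO libraries. Nodal, Lefty1 and Lefty2 thus reached the mean of 1 FPKM needed for a test only through the female Snf5 CKO libraries. They had to differ, so their female calls and adjusted p carry no weight of their own. FPKM is the number of fragments per length of transcript and per total of mapped fragments, so levels of different genes within a library can be compared per length. A gene was called when the log2 fold change, taken on log2(FPKM + 1), was at least 1 in either direction and the limma adjusted p, over all tested genes of that sex, was below 0.05.

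The libraries were first checked with Smarcb1, which encodes SNF5. Its level was 23.4 and 22.3 FPKM in female controls and 4.24 and 2.47 FPKM in female Snf5 CKO libraries, and it fell by 2.48 on the log2 scale (SE 0.24, limma adjusted p = 0.000289). In males it was 141 and 167 FPKM in controls and 8.73 and 10.1 FPKM in Snf5 CKO, and it fell by 3.90 (SE 0.18, adjusted p = 0.00222). The tables hold no fragment counts, so total depth is unknown. The share of summed FPKM at loci without a gene name ranged from 5.46% to 42.1%. In females it was lower in both Snf5 CKO libraries (9.94% and 28.2%) than in the controls (36.7% and 35.3%), and in males it was low in both libraries of replicate 1 (6.56% in control and 5.46% in Snf5 CKO) and high in both of replicate 2 (42.1% and 35.4%). The part of these shares in the differences below was not tested. All 5 germ cell markers, Ddx4, Dazl, Pou5f1, Dppa3 and Mael, were above 0 in every library, but they moved in different directions. In females Pou5f1 and Dppa3 were called higher, Dppa3 going from 41.2 and 61.3 FPKM in controls to 1406 and 1632 FPKM in Snf5 CKO, while Mael was called lower, from 670 and 631 FPKM to 203 and 140 FPKM. In males Mael was called lower.

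Nodal occupied chr10:61417972-61425337 (mm10, plus strand) in the female table. The male locus began 11426 bases upstream of the annotated start, at position 61406546. The 250 bases upstream of the RefSeq start (GRCm38.p6, chr10:61417722-61417971, plus strand) and the corresponding bases of Tdgf1 (chr9:110946159-110946408, minus strand) are shown because these genes encode the ligand and its coreceptor and both lay above the controls in the Snf5 CKO libraries of both sexes. Capitals mark CAGAC, the core of the SMAD binding element.

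Nodal: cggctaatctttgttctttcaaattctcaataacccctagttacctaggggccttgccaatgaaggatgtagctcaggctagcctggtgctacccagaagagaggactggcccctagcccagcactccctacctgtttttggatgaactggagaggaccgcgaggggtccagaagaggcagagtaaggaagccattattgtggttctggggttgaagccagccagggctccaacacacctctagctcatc
Tdgf1: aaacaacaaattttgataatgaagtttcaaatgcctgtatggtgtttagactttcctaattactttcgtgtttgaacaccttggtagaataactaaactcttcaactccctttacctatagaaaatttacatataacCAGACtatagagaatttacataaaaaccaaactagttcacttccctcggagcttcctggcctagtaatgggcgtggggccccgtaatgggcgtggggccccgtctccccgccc

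Searched on both strands of these 250 bases, CAGAC occurred once before Tdgf1, Acvr2a and Acvr2b and was absent before Nodal, Smad3 and Acvr1b. It occurred in 42.2% of the 32851 promoters of the RefSeq table, so that a match is frequent in any gene. The FOXH1 core AATCCAC, held by 2.10% of promoters, and the OCT4-SOX core ATGCAAA, held by 4.13%, had no match in any of the 6 members with an entry, which says only that these letters are not in this window. Lefty1, Lefty2 and Smad2 were not matched.

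Nodal, the ligand, was listed at 0 and at 0.0608 FPKM in the female controls and was at 9.90 and 14.9 FPKM in the female Snf5 CKO libraries. The groups did not overlap, and the log2 fold change was 3.68 (SE 0.24, 95% interval 3.11 to 4.24, limma adjusted p = 0.000109). Nodal was tested in females only because of its level in the Snf5 CKO libraries. In males, Nodal was at 7.56 and 8.03 FPKM in controls and at 54.4 and 68.1 FPKM in Snf5 CKO, again without overlap. The male log2 fold change was 2.82 (SE 0.19, 95% interval 2.33 to 3.30, adjusted p = 0.00222). Within replicate numbers 1 and 2 the difference was 3.45 and 3.91 in females and 2.70 and 2.94 in males. The 2 tables were quantified separately, so female and male levels are given side by side and their differences were not compared by a test.

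Tdgf1, the membrane-anchored coreceptor, lies at chr9:110939608-110946158 on the minus strand. It was listed at 0 and at 0.0273 FPKM in the female controls and was at 2.11 and 1.20 FPKM in the female Snf5 CKO libraries. Its mean over the 4 female libraries was below the minimum of 1 FPKM that a gene needed to be tested, so that Tdgf1 has values only in females. Male controls held 1.60 and 0.754 FPKM and male Snf5 CKO libraries 16.6 and 20.2 FPKM. The male groups stood well apart, with a log2 fold change of 3.18 (SE 0.27, 95% interval 2.49 to 3.86, limma adjusted p = 0.00234). Of the 75-base windows of its longest transcript, 8.67% occur also in the pseudogene Tdgf1-ps1, so a part of its reads could have been assigned to either.

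Lefty1 and Lefty2 encode the secreted antagonists and are neighbours on chromosome 1, at chr1:180935039-180938401 and chr1:180893119-180899102, both on the plus strand. Female controls had Lefty1 listed at 0 and at 0.0335 FPKM, and female Snf5 CKO libraries had 3.45 and 4.83 FPKM, for a log2 fold change of 2.32 (SE 0.21, limma adjusted p = 0.000243). Lefty2 was at 0.0198 and 0.0834 FPKM in female controls and at 6.95 and 7.88 FPKM in female Snf5 CKO, for a log2 fold change of 3.0 (SE 0.19, adjusted p = 0.000109). Neither gene overlapped between groups in females, and both were tested there only because of their level in the Snf5 CKO libraries.

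In males, Lefty1 rose from 11.4 and 14.1 FPKM in controls to 268 and 300 FPKM in Snf5 CKO, which made it the most abundant of the 9 genes in the male Snf5 CKO libraries. Its log2 fold change was 4.38 (SE 0.19, 95% interval 3.90 to 4.86, limma adjusted p = 0.00222). Lefty2 rose from 9.41 and 10.2 FPKM to 76.0 and 72.0 FPKM, with a log2 fold change of 2.79 (SE 0.16, 95% interval 2.38 to 3.21, adjusted p = 0.00222). Both intervals are for the gene's own difference, and they did not overlap.

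The ratio of the antagonist genes was taken within each library. In male controls the Lefty1 level was 1.21 and 1.38 times that of Lefty2, and in male Snf5 CKO libraries it was 3.53 and 4.16 times. In females the ratio was 0.496 and 0.613 in Snf5 CKO libraries and 0.401 in control replicate 2, the only female control with both genes above 0. With 2 libraries a group, an exact permutation test of such a ratio cannot go below p = 0.333, so no test was made. Lefty1 and Lefty2 are paralogs that share 173 windows of 75 bases, which are 11.2% of the windows of Lefty1 and 7.21% of those of Lefty2, and reads from these stretches could have been assigned to either.

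**Figure D1:**
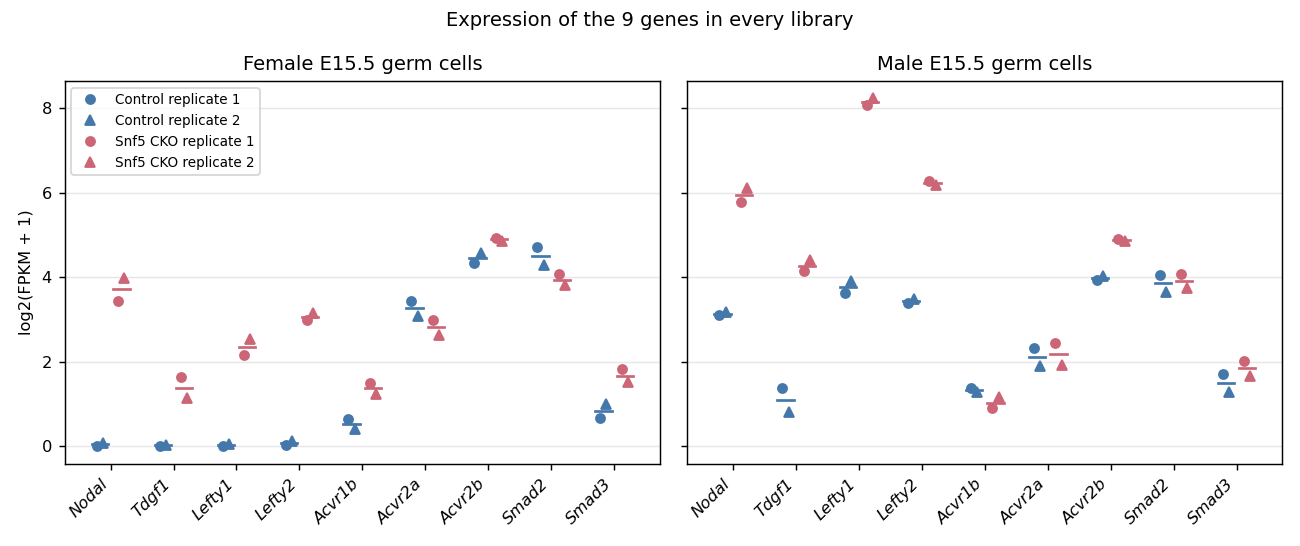
Level of each of the 9 genes as log2(FPKM + 1) in every library of female (left) and male (right) E15.5 germ cells; circles are replicate 1, triangles replicate 2 and short lines the mean of the 2 libraries of a group, with controls in blue and Snf5 CKO in red. Nodal, Tdgf1, Lefty1 and Lefty2 lie near 0 in female controls and above both controls in the Snf5 CKO libraries of both sexes, whereas the receptor and SMAD genes differ less between the groups.

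Acvr1b encodes the type I receptor ALK4, the kinase that phosphorylates SMAD2 and SMAD3, and lies at chr15:101174125-101213753 on the plus strand. It was at 0.558 and 0.319 FPKM in female controls and at 1.84 and 1.36 FPKM in female Snf5 CKO. The log2 fold change of 0.85 (SE 0.21, limma adjusted p = 0.0108) passed the p but not the size that a call needed, and the gene reached the filter only through the Snf5 CKO libraries. In males the order was the other way round, with 1.61 and 1.44 FPKM in controls and 0.884 and 1.23 FPKM in Snf5 CKO, a log2 fold change of -0.30 (SE 0.18, adjusted p = 0.225).

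Acvr2a and Acvr2b encode the type II receptors, which bind the ligand and activate the type I receptor. Acvr2a (chr2:48814109-48949267, plus strand) was at 9.78 and 7.53 FPKM in female controls and 6.93 and 5.22 FPKM in female Snf5 CKO, with a log2 fold change of -0.45 (95% interval -0.98 to 0.08, limma adjusted p = 0.121). In males it was at 4.0 and 2.75 FPKM in controls and 4.43 and 2.80 FPKM in Snf5 CKO, where the groups overlapped (log2 fold change 0.07, 95% interval -0.63 to 0.77, adjusted p = 0.854). The deposited Acvr2a locus runs past the annotated end of the gene, at 48903269, into Orc4, a gene of the opposite strand, and 446 exonic bases of the genes overlap, so the Acvr2a values could hold Orc4 reads.

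Acvr2b (chr9:119402096-119442107, plus strand) was the most abundant of the 3 receptor genes in every library. Female controls held 19.3 and 22.7 FPKM and female Snf5 CKO libraries 29.5 and 28.1 FPKM, a log2 fold change of 0.44 (SE 0.17, limma adjusted p = 0.0606). The male groups did not overlap, at 14.4 and 15.3 FPKM in controls and 29.2 and 28.1 FPKM in Snf5 CKO. The mean was 1.93 times that of controls, and the log2 fold change of 0.91 (SE 0.16, 95% interval 0.49 to 1.32, adjusted p = 0.0108) lay just below the size for a call. Its adjusted p ranged from 0.000385 to 0.221 over 12 alternatives of the analysis, the highest when libraries were rescaled to a common sum. Acvr2b exceeded Acvr2a by 1.97 and 3.01 times in female controls, 4.25 and 5.38 times in female Snf5 CKO, 3.59 and 5.57 times in male controls and 6.58 and 10.1 times in male Snf5 CKO.

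Smad2 and Smad3 encode the receptor-regulated SMADs, which carry the signal to the nucleus. Smad2, on chromosome 18, was at 25.3 and 18.7 FPKM in female controls and at 15.9 and 13.0 FPKM in female Snf5 CKO, a log2 fold change of -0.56 (SE 0.21, limma adjusted p = 0.0551). In males it was at 15.7 and 11.6 FPKM in controls and 15.9 and 12.3 FPKM in Snf5 CKO libraries (log2 fold change 0.05, 95% interval -0.55 to 0.66, adjusted p = 0.875), and the groups overlapped.

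Smad3 (chr9:63646767-63757994, minus strand) was lower than Smad2 in every library. It was at 0.599 and 0.984 FPKM in female controls and at 2.56 and 1.85 FPKM in female Snf5 CKO, with a log2 fold change of 0.84 (SE 0.22, limma adjusted p = 0.0148), which did not reach the size for a call, and it too reached the filter only through Snf5 CKO. In males it was at 2.25 and 1.42 FPKM in controls and 3.08 and 2.19 FPKM in Snf5 CKO libraries (log2 fold change 0.36, SE 0.24, adjusted p = 0.270). Smad2 exceeded Smad3 by 42.2 and 19.0 times in female controls and by 6.19 and 7.05 times in female Snf5 CKO. In males this ratio was 6.96 and 8.20 in controls and 5.17 and 5.64 in Snf5 CKO.

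Ordered by level, Acvr2b and Smad2 were the leading members in female controls, with overlapping ranges, and were followed by Acvr2a, Smad3 and Acvr1b, with the 4 genes of the ligand, coreceptor and antagonists at the bottom. In female Snf5 CKO, Acvr2b was first, the ranges of Smad2 and Nodal overlapped, and Lefty2, Acvr2a and Lefty1 came next without overlap. Tdgf1, Smad3 and Acvr1b formed the lower end, where neighbouring ranges overlapped. In male controls the ranges of Acvr2b, Smad2 and Lefty1 were at the top and Smad2 overlapped both others, and Lefty2 and Nodal came next without overlap. In male Snf5 CKO Lefty1, Lefty2, Nodal, Acvr2b and Tdgf1 followed each other without overlap, ahead of Smad2. Acvr2a, Smad3, Acvr1b and, in controls, Tdgf1 formed the lower end in males.

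**Figure D2:**
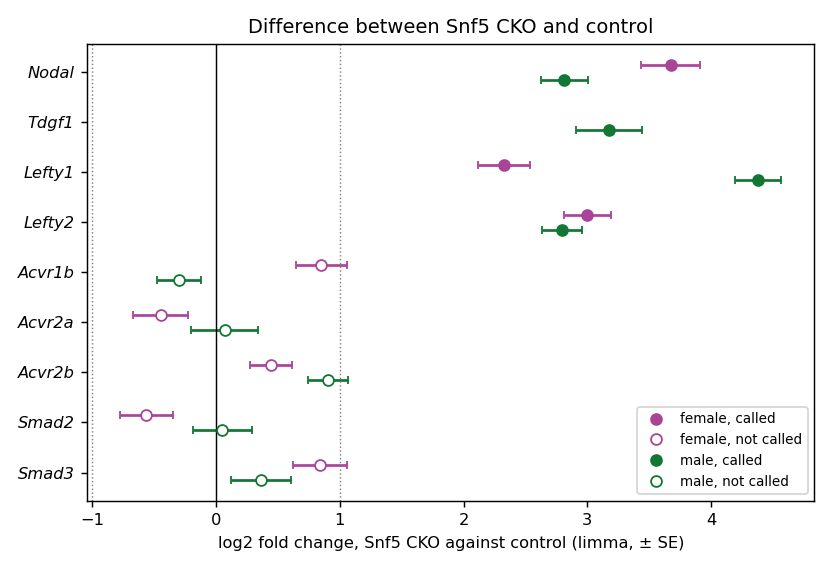
Difference between Snf5 CKO and control for the 9 genes, as the log2 fold change on log2(FPKM + 1) from limma with its SE, in females (purple) and males (green); filled points were called, open points were not, and dotted lines mark a log2 fold change of 1 in either direction. Tdgf1 has no female point because it was below the filter. The called points lie between 2.32 and 4.38, and all receptor and SMAD genes lie between -0.56 and 0.91.

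Of the 9 genes, 8 were tested in females, of which 3 were called higher and none lower, where 17.2% of the 11642 tested genes were called higher and 21.8% lower. Nodal, Lefty1, Lefty2, Acvr1b and Smad3 passed the filter in females through the Snf5 CKO libraries alone, their control means being below 1 FPKM, and thus had to differ, so neither their number nor their adjusted p carries weight of its own. With a pseudocount of 0.1 in place of 1 the log2 fold changes of Nodal, Lefty1 and Lefty2 were 6.59, 5.18 and 5.66, and 5 members were called higher in females, Acvr1b and Smad3 being added. With a minimum mean of 5 FPKM, 1 was called, Nodal. In males all 9 were tested and 4 were called higher and none lower, against 14.3% of 12368 genes called higher and 17.5% called lower. Both Snf5 CKO libraries lay above both controls for 6 of the tested members in females and 5 in males, and below for 2 and 1, respectively. The corresponding shares of all tested genes were 36.2% above and 45.3% below in females, and 34.5% above and 39.9% below in males.

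The libraries also differed in markers of somatic cells, and in sorted bulk samples more cells of a type and more RNA per cell cannot be told apart. The study lists similar purities of the sorted germ cells for the Snf5 CKO and control samples of each sex. In males, all 8 Sertoli markers were called higher in Snf5 CKO, none was at 0 in any library, and their summed level went from 74.5 to 92.2 FPKM in controls to 386 to 561 FPKM in Snf5 CKO. Among them, Cldn11 was at 0.151 and 0.171 FPKM in controls and at 0.921 and 2.77 FPKM in Snf5 CKO. Cldn11 passed the filter only through the Snf5 CKO libraries and had to differ, so its call carries no weight of its own. Of the 5 Leydig markers and the 6 stromal markers, 3 each were called lower in males and all lay below the controls. The Leydig sum was 58.2 to 85.7 FPKM in controls and 15.1 to 19.2 FPKM in Snf5 CKO, and the stromal sum 9.95 to 20.3 and 2.87 to 4.11 FPKM. Insl3, among the Leydig genes called, was read at a locus merged with Jak3. That locus was at 35.9 and 32.7 FPKM in controls and at 10.3 and 10.1 FPKM in Snf5 CKO. Among the stromal genes called, Pdgfra and Col1a1 passed the filter only through the controls.

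In females, all 6 pre-granulosa markers lay above the controls and 3 were called higher, with a summed level of 5.86 to 7.49 FPKM in controls and 21.9 to 22.3 FPKM in Snf5 CKO. The female Sertoli list summed to 5.21 to 7.99 FPKM in controls and 16.7 to 17.3 FPKM in Snf5 CKO, with 1 of its 8 genes called higher and Dhh listed at 0 in both controls. Of the 2 tested genes of the female Leydig list 1, Insl3, was called higher. Its locus was merged with Jak3, at 3.13 and 3.99 FPKM in controls and 8.52 and 10.1 FPKM in Snf5 CKO, so the call could stand for either gene. Of the 2 tested genes of the stromal list 1, Col1a1, was called lower, and it passed the filter only through the controls. Of the pre-granulosa markers in males, 1 was called higher and 1 lower. Of the 6 blood and endothelial markers only haemoglobin genes were tested, 1 in females and 2 in males, and none was called by limma. Cdh5, Kdr, Tie1 and Ptprc were below the filter and could not be called. Of the list, 2 genes in females and 3 in males lay below both controls in Snf5 CKO, and none above. Male Cdh5 was at 0.705 and 0.875 FPKM in controls and at 0.137 and 0.0374 FPKM in Snf5 CKO. Pou5f1, which was called higher in females, is the gene that Oct4-EGFP reports. The part of these shifts in the differences of Nodal, Tdgf1, Lefty1 and Lefty2 was not tested.

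**Figure D3:**
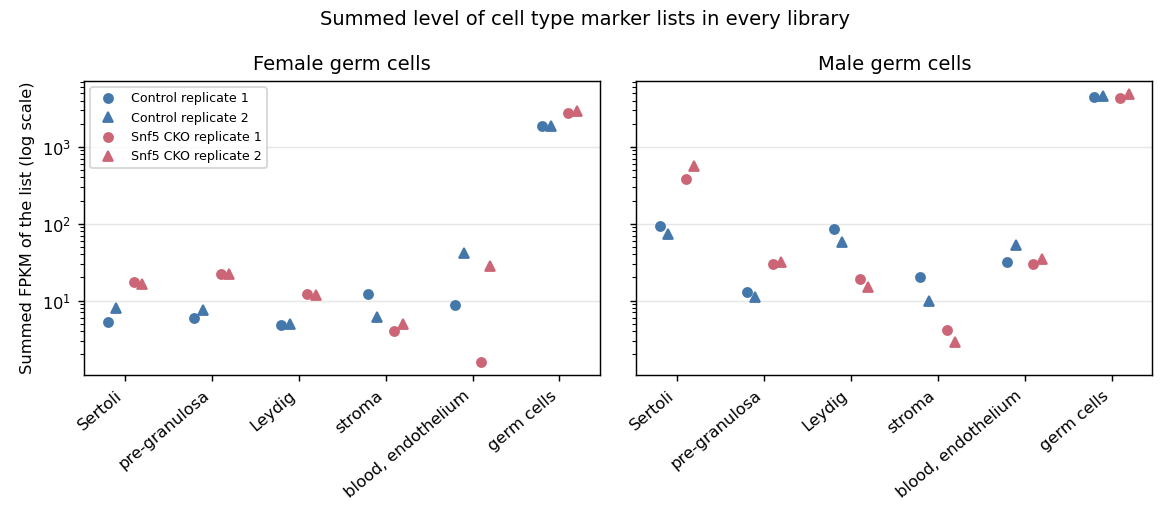
Summed FPKM of 6 lists of cell type markers in every library, on a log scale, for female (left) and male (right) germ cells; controls are blue and Snf5 CKO red, circles replicate 1 and triangles replicate 2. The male Sertoli sum lies at 386 and 561 FPKM in Snf5 CKO and at 92.2 FPKM or less in controls, and the female pre-granulosa sum at 22.3 and 21.9 FPKM in Snf5 CKO and at 7.49 FPKM or less in controls.

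A list of 41 other genes of the pathway was then examined. In females 23 of them passed the filter, of which 11 were called higher and 3 lower, where 17.2% and 21.8% of all tested genes were, with a median log2 fold change of 0.90 where the median of all tested genes was -0.14. In males 28 passed, of which 9 were called higher and 2 lower, where 14.3% and 17.5% of all tested genes were, with a median of 0.69 against -0.07 for all tested genes. Some passed only through the Snf5 CKO libraries and had to differ. Without any filter, both Snf5 CKO libraries lay above both controls for 22 of the 41 genes in females and 21 in males, and below for 6 and 8. Of all named loci, 23.8% lay above and 30.4% below in females, and 22.6% above and 33.1% below in males. The counts by role given next rest on 8 or fewer tested genes each and are descriptions.

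Of the ligands and their convertases, 2 of 5 tested genes were called higher in females and 5 of 6 in males, and none lower. Both genes called in females, Gdf1 and Gdf3, had control means below 1 FPKM (0.562 and 0.488 FPKM). They passed the filter only through the Snf5 CKO libraries, so neither their count nor their adjusted p carries weight of its own. The same holds for Gdf1 in males, at a control mean of 0.313 FPKM, and its exons overlap those of Cers1 and Upf1. Gdf3, a GDF ligand that also signals through Cripto, rose from 0.235 and 0.740 FPKM in female controls to 30.0 and 38.7 FPKM in female Snf5 CKO libraries (log2 fold change 4.58, limma adjusted p = 0.000106). In males it rose from 8.05 and 8.72 FPKM to 40.4 and 41.6 FPKM (2.16, adjusted p = 0.00229). Inha and Inhbb, which encode the inhibin α and the βB subunits, were called higher in males, with log2 fold changes of 1.74 and 1.70. Inha went from 14.4 and 12.5 FPKM to 34.3 and 64.7 FPKM, and Inhbb from 2.94 and 1.05 FPKM to 8.21 and 8.27 FPKM. Both are known Sertoli cell products, and the Sertoli markers rose in the same libraries. The part of that shift in the differences of Inha and Inhbb was not tested.

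Of 3 receptor and coreceptor genes tested in females 2 were called higher and 1 lower, and of 2 secreted antagonists 1 was called higher. Acvr1, which encodes the type I receptor ALK2, rose from 1.94 and 0.785 FPKM in female controls to 10.1 and 7.92 FPKM in female Snf5 CKO libraries (log2 fold change 2.12, limma adjusted p = 0.000940). Tgfbr1, the type I receptor for TGF-β, fell from 43.2 and 41.2 FPKM to 18.6 and 15.4 FPKM in the same comparison (log2 fold change -1.27, adjusted p = 0.00108). Fst, which encodes the activin-binding protein follistatin, rose from 1.30 and 2.73 FPKM to 8.33 and 7.35 FPKM in females (1.59, adjusted p = 0.00239). Fst is also expressed by pre-granulosa cells, whose markers were higher in these libraries. The part of that shift in the difference of Fst was not tested. Of 4 receptor genes and 2 antagonists tested in males none was called.

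Of the 6 SMADs and partners, 3 were called higher and 1 lower in females, and 2 higher in males. Foxh1, the DNA-binding partner of SMAD2 and SMAD3, showed the largest rise of the list in males and the next largest after Gdf3 in females. It went from 4.93 and 5.38 FPKM to 74.2 and 104 FPKM in females (log2 fold change 3.85, SE 0.21, limma adjusted p = 0.000106) and from 2.97 and 4.85 FPKM to 38.9 and 43.7 FPKM in males (3.13, SE 0.25, adjusted p = 0.00229). The deposited Foxh1 locus extends over the neighbouring gene Kifc2 in both sexes and over Cyhr1 in females. Smad7, an inhibitory SMAD, was called higher in females (1.88), and Zfyve9, which encodes the SMAD anchor SARA, was called lower there (-1.11, adjusted p = 0.0236). The call of Zfyve9 was lost without control replicate 1 (-0.75) or Snf5 CKO replicate 2 (-0.73). In males, Drap1, a corepressor gene, rose from 23.7 and 35.9 FPKM to 85.8 and 108 FPKM (1.69, adjusted p = 0.00732).

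Of the repressors and genes of turnover, 3 of 7 tested genes were called higher and 1 lower in females, and 1 of 8 higher and 2 lower in males, where the share called higher was near that of all tested genes. Tgif2, a nuclear corepressor gene, was called higher in females, from 7.30 and 8.17 FPKM to 30.7 and 29.6 FPKM (log2 fold change 1.84, limma adjusted p = 0.000260). Smurf2, a ubiquitin ligase, was called lower in females (-1.03), a call lost without Snf5 CKO replicate 2 (-0.95). In males, the corepressor gene Tgif1 fell from 74.0 and 76.8 FPKM to 18.8 and 26.4 FPKM (-1.71, adjusted p = 0.00437), and the ligase gene Smurf1 fell from 33.2 and 20.9 FPKM to 8.78 and 7.47 FPKM (-1.59, adjusted p = 0.00937).

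The list held 5 target genes known from the embryo, none of which passed the filter in females. In males 2 passed, and 1 of them was called higher. Otx2, a homeobox gene of the epiblast and the anterior neural plate, rose from 2.52 and 2.84 FPKM to 12.8 and 14.5 FPKM (log2 fold change 1.99, limma adjusted p = 0.00269), while Eomes was between 1.01 and 1.20 FPKM in all male libraries. Exons of Otx2, Fst, Drap1, Tgif2 and Zfyve9 overlap genes of the opposite strand (Otx2os1, Gm47040, 4930481A15Rik, 5430405H02Rik and 3110021N24Rik), and the sources used here do not state a strand-aware count, so reads of such pairs cannot be told apart.

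**Figure D4:**
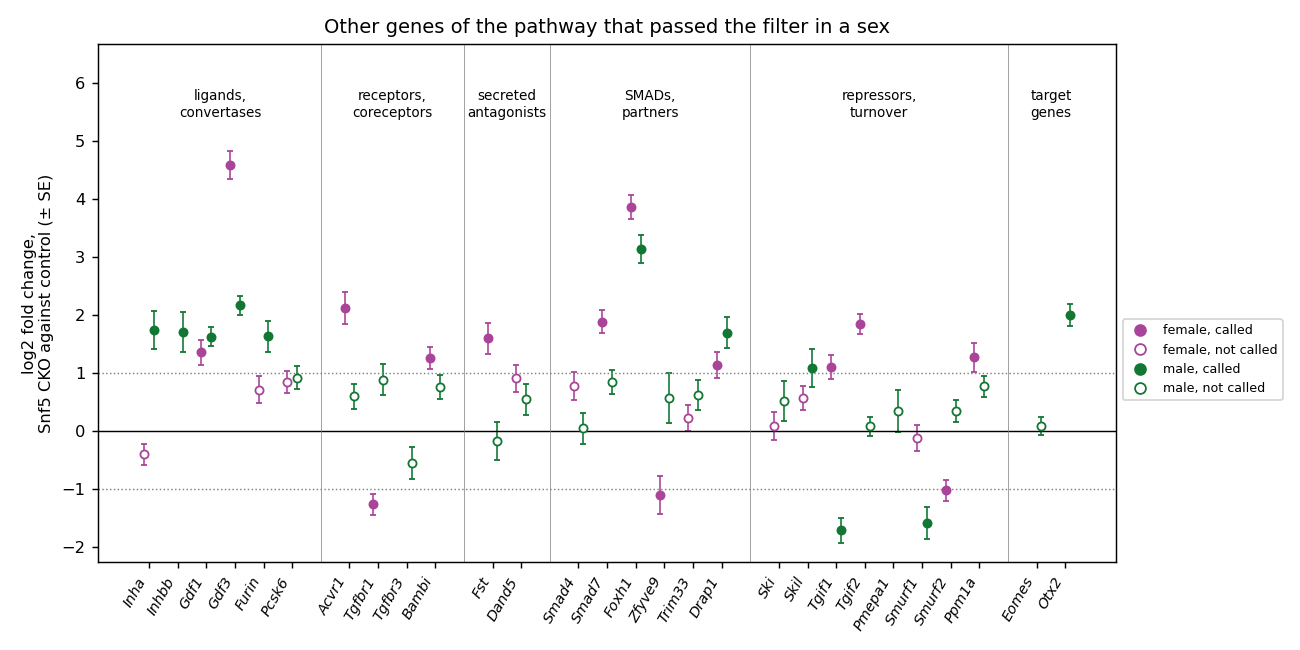
Log2 fold change on log2(FPKM + 1) with its SE for the other genes of the pathway that passed the filter in a sex, grouped by role, with females in purple and males in green; filled points were called and dotted lines mark a log2 fold change of 1 in either direction. Gdf3 at 4.58 in females and Foxh1 at 3.85 in females and 3.13 in males are the highest points, and Tgif1 at -1.71 in males is the lowest.

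As a description of which genes had a like pattern, log2(FPKM + 1) was centred on the mean of each table and the root mean square difference over the 8 libraries was taken for genes whose mean reached 1 FPKM in both tables. Out of 11087 genes, those nearest to Nodal were Ctgf, Ebp, Tdh, Foxh1 and Cdkn1a, at differences between 0.129 and 0.181 on the log2 scale. Those nearest to Tdgf1 were Otop1, Ankle1, Pipox, Dna2 and Pkdcc, at differences between 0.226 and 0.260. All genes were compared over the same 8 libraries, in which the number of a replicate may stand for a shared batch. The ranking carries no test.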

How the data were processed

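RNA-Seq libraries of E15.5 germ cells were grouped by the sample titles. Per the study's methods and the labels, the authors prepared cDNA with a SMART-Seq kit, mapped reads with TopHat2 and quantified them on mm10 in a separate run for each sex, with Cufflinks; the submitters' processing notes name TopHat2 2.2.1 and Cuffdiff 2.1.1. The annotation version and library-size normalization are not given in the sources used here. The deposited values are FPKM per locus, and 16 columns with confidence limits were left unused. The deposited quantification status was used only for an alternative. Loci without a gene name (4737 female, 6272 male) were left out. Printed starts are those of the tables plus 1.

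The 4 libraries of a sex entered a separate limma fit (version 3.58.1, R 4.3.3; lmFit, eBayes with trend) of log2(FPKM + 1), restricted to named loci whose mean reached 1 FPKM. Loci were called at a log2 fold change of 1 or more in size when the p, adjusted by Benjamini-Hochberg over all tested loci, was below 0.05. The fit was tested on simulated data. The labels do not say that libraries came from separate litters, so p-values measure only the spread between these samples. The number of a replicate may stand for a shared batch, because male column names call it an experiment and raw files are named alike within a number. Deviations of replicate 2 from replicate 1 correlated across genes between groups at 0.504 in females and 0.595 in males. The main fit nevertheless held no term for the replicate number, so its SE and p ignore any such pairing. The analysis was repeated with a pseudocount of 0.1, without the filter, with a minimum mean of 5 FPKM, with rescaling to a common sum or by median-of-ratios, without the trend, with a replicate block, on loci of status OK only, and with each library left out. Members and lists were chosen with earlier results of these data known, and 1 gene of the pathway list is not reported here. The text names the 9 members, Smarcb1, up to 6 called pathway genes a direction and sex, and the 5 genes nearest to Nodal and to Tdgf1. Shared 75-base windows came from GENCODE transcripts of GRCm38. Figures were drawn with matplotlib.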

Additional observations from a re-analysis of the deposited data

Results flagged for a closer look

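Of the 31 member and pathway genes tested in both sexes, 5 had both Snf5 CKO libraries above both controls in one sex and below them in the other. Of all tested genes, 36.2% lay above and 45.3% below in females, and 34.5% and 39.9% in males. The share of all genes that lay opposite in the sexes was not taken, so the count is only a description. The difference between the sexes was not tested because the tables were quantified separately. Acvr1b had a log2 fold change of 0.85 in females and -0.30 in males, neither of them called, and it passed the filter in females through the Snf5 CKO libraries alone. Tgfbr1 was at -1.27 in females, where it was called, and at 0.88 in males. Tgif1 was called in both sexes, at 1.10 in females and -1.71 in males. Smurf2 was at -1.03 in females, where it was called, and at 0.34 in males. Inha was at -0.41 in females and at 1.74 in males, where it was called, and its female locus began 21252 bases upstream of the annotated start and overlapped Obsl1.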

How the results depend on the processing

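In males, 4 members were called higher and none lower under all 12 alternatives. In females, 3 were called higher, 5 with a pseudocount of 0.1, where Acvr1b (1.68) and Smad3 (1.39) were added, 1 with a mean of at least 5 FPKM, where Lefty1 and Lefty2 were no longer tested, and between 3 and 4 with a library left out, Smad3 (1.0) being added without Snf5 CKO replicate 2. Without a filter, female Tdgf1 was called (1.37, limma adjusted p = 0.00657). Female pathway genes called higher numbered 7 with a mean of at least 5 FPKM, and those called lower numbered 1 with median-of-ratios rescaling and between 1 and 3 with a library left out, the lowest without Snf5 CKO replicate 2, Zfyve9 and Smurf2 being lost in both. Zfyve9 also lost its call without a filter or without Snf5 control replicate 1. Male pathway genes called lower numbered 5 without a filter, and all male genes called lower numbered 1353 with a mean of at least 5 FPKM, where fewer genes were tested. The male log2 fold changes of Acvr2a and Smad2, near 0, turned to -0.065 and -0.12 with a common sum, and also turned negative without control replicate 2 or Snf5 CKO replicate 1, ranging with a library left out from -0.19 to 0.33 for Acvr2a and from -0.15 to 0.25 for Smad2.

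A common sum changed the split of all male calls from 1772 higher and 2160 lower to 1304 and 2494, and the median over all genes from -0.07 to -0.24; in females, median-of-ratios rescaling moved that median from -0.14 to 0.01. With the replicate block, 2019 female genes were called higher and 2555 lower, and 1861 and 2238 in males. Members called stayed at 3 and 4, and the block changed no call of a member. It lowered the female limma adjusted p of Smad2 from 0.0551 to 0.00436. That of Acvr2b went from 0.0606 to 0.0135 and that of Acvr2a from 0.121 to 0.0217, all below the size for a call. Every member lies at 1 locus, so summing over loci would change nothing and was not run. Depth cannot be stated without counts.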

Other observations

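Genes of the pathway below the filter, chosen after their values were seen, included 3 that were lower in male Snf5 CKO germ cells. Inhba and Inhbc, at 0.498 FPKM or less in every male library, also lay below both controls there. Of all named loci, 33.1% lay below in males. Gsc, a homeobox target of Nodal, was at 1.17 and 2.44 FPKM in male controls and at 0.0365 and 0.0297 FPKM in Snf5 CKO. T, the T-box gene brachyury, was at 0.954 and 1.65 FPKM and at 0.0946 and 0.139 FPKM. Cer1, which encodes a secreted antagonist of Nodal, was at 1.37 and 1.22 FPKM in controls, listed at 0 in Snf5 CKO replicate 1 and at 0.267 FPKM in replicate 2. Gsc, T and Cer1 were the 3 genes added to the male calls when no filter was applied. In females, T was at 0.0486 and 0.0128 FPKM in controls and at 0.800 and 0.727 FPKM in Snf5 CKO, and the coreceptor gene Cfc1, a relative of Tdgf1, was listed at 0 in both controls and was at 0.697 and 0.482 FPKM in Snf5 CKO.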
